A study of Mus musculus with 6 samples.

Results

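In the medial prefrontal cortex (mPFC) of mice that overexpress *Shank3*, 10 genes known from the cytoskeleton and processes of oligodendrocytes were examined. They were *Bcas1*, *Ermn*, *Sept4*, *Sept8*, *Plekhb1*, *Plekhh1*, *Tppp*, *Tppp3*, *Gsn* and *Anln*, and all 10 were found by name among the 18254 genes of the deposited table. The genes were chosen by what is known of them in oligodendrocytes and with their TG and WT values in view, so that a lower level in TG is a description of the choice and is given without a p-value. The libraries were 3 from EGFP-*Shank3* transgenic (TG) mice and 3 from their wild-type (WT) littermates. All mice were males on a C57BL/6J background and aged 10 to 12 weeks. The mPFC of 2 mice of the same genotype went into each library, so a replicate is a pool, and the SD between libraries understates the spread between mice. The TG mice carry an EGFP-tagged *Shank3* in addition to the endogenous gene, and the promoter that drives it is not given in the sources used here.

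In the developing brain, an oligodendrocyte precursor extends branched processes along microtubules, and these search for axons with actin-rich tips. When a process wraps an axon, its actin filaments are taken apart while the membrane spreads and compacts into myelin. In mature myelin, septin filaments and the adaptor protein anillin lie along the innermost layer next to the axon, where they keep the sheath from folding outwards. The genes below make the proteins of these steps: *Bcas1* and *Ermn* mark the myelinating cell and its actin, *Sept4*, *Sept8* and *Anln* the septin scaffold, *Tppp* and *Tppp3* the microtubules, *Gsn* the severing of actin, and *Plekhb1* and *Plekhh1* carry pleckstrin homology domains that bind membrane lipids.

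The start regions of *Ermn*, *Plekhh1* and *Anln* are shown because these genes had the largest differences between the genotypes and because each has 1 start in RefSeq. The 250 bases before the start are written 5′ to 3′ on the gene's strand, from GRCm38.p6, and none overlaps an annotated exon. Capitals mark matches, on either strand, to the letters bound by SOX factors such as SOX10 (ACAAAG or ACAATG), to the E-box (CANNTG) of basic helix-loop-helix factors such as OLIG2, or to the core bound by the myelin regulator MYRF (CTGGCAC or CTGGTAC).
Ermn, chr2:58052865-58053114, minus strand: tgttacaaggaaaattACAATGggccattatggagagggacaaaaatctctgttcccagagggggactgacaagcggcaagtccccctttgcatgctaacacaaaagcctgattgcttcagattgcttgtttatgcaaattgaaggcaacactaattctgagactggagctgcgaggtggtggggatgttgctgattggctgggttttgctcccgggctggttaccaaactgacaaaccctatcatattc
Plekhh1, chr12:79028913-79029162, plus strand: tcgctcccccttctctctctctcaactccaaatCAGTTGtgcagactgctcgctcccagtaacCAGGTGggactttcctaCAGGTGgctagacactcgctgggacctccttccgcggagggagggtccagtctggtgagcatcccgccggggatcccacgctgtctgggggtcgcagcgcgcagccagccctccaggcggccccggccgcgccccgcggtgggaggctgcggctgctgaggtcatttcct
Anln, chr9:22389207-22389456, minus strand: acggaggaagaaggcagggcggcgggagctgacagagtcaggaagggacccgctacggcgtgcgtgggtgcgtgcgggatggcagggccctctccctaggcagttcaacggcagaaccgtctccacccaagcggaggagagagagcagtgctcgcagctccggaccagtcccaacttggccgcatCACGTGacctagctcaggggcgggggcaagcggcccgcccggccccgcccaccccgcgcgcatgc
The *Ermn* window held 1 SOX-type match and no E-box. The *Plekhh1* window held 3 E-boxes and no SOX-type match, and the *Anln* window held 1 E-box, CACGTG. RefSeq starts were at hand for 8 of the 10 genes, with 15 windows in all, and *Bcas1* and *Tppp3* had none. The windows are not independent, as some genes have several and a pair of *Sept4* windows share 219 bases. An E-box was in 11 of the 15 windows (6 of 8 genes) and in 66.22% of 32851 mouse promoter windows of the same length. SOX-type letters were in 3 of 15 (3 of 8 genes) and in 25.24% of all windows, and the MYRF-type core was in 0 of 15 and in 5.93% of all windows. The GC box GGGCGG was in 9 of 15 windows (5 of 8 genes, with 6 of the 9 windows in *Sept4* and *Gsn*) and in 32.74% of all, and the *Anln* window held 4 copies. TATAAA was in 0 of 15 windows and in 12.37% of all. These matches describe the letters of the windows, and no binding was measured.

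The *Shank3* level followed the labels. It was 17470, 19004 and 16310 normalized counts in TG-1, TG-2 and TG-3 and 8374, 8173 and 6791 in WT-1, WT-2 and WT-3 (17594 ± 1351 against 7779 ± 862, SD, n = 3 each). On the log2 scale the difference was 1.18 (SE 0.10), with a limma adjusted p of 0.0643, and of 0.000437 with the replicate number as a block. Normalized counts are reads assigned to a gene, scaled for the depth of the library, and they summed to between 28363967 and 29447717 in a library. Of 16714 genes tested by limma, 0 (0%) had an adjusted p under 0.05 and 1, *Shank3* itself, did with the block (0.00598%). At an unadjusted p under 0.05, 180 genes were lower in TG (1.08%) and 156 were higher (0.933%), and with the block 444 (2.66%) and 389 (2.33%) were.

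In WT mPFC the 10 genes spanned a wide range of levels, compared here as normalized counts per kilobase of the longest annotated transcript. *Tppp* was the highest with 3718 ± 315 per kb (SD, n = 3), and *Sept8* followed with 2718 ± 137. *Plekhb1* (1948 ± 57.4) and *Sept4* (1901 ± 60.8) had overlapping WT libraries, and their order is not resolved. *Bcas1* stood apart from both neighbours with 1157 ± 81.9 per kb. *Gsn* (535 ± 23.5), *Tppp3* (429 ± 75.2) and *Ermn* (346 ± 45.1) formed a lower group, in which the libraries of *Tppp3* overlapped those of both others. *Plekhh1* (153 ± 17.6) and *Anln* (109 ± 12.2) were the lowest, and their libraries did not overlap. All 10 genes passed the filter on low values (a mean over the 6 libraries of 5 or more normalized counts), and the lowest single value was the 243 normalized counts of *Anln* in TG-1.

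**Figure D1:**
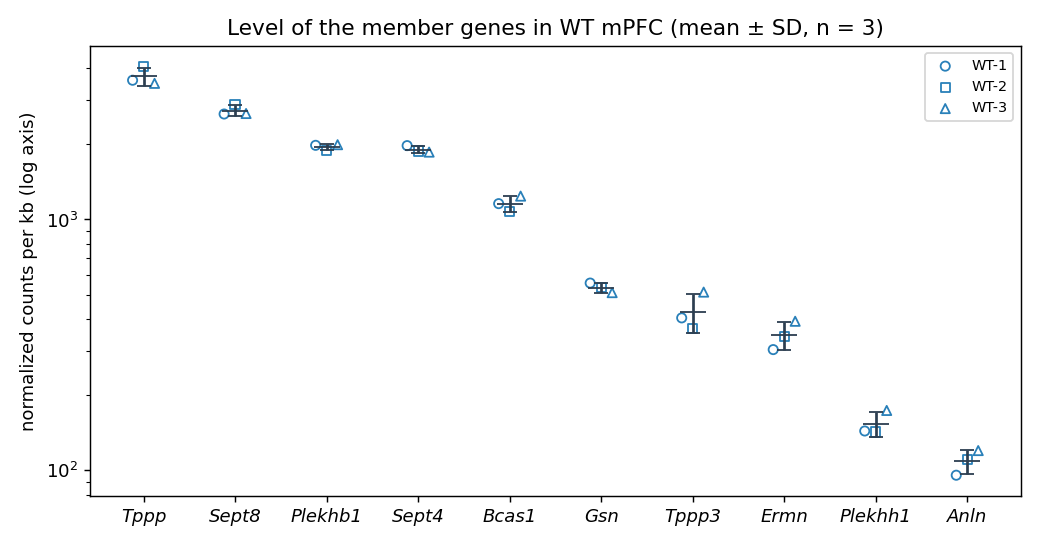
Normalized counts per kilobase of the longest annotated transcript in the 3 WT libraries (symbols), with the mean and SD, on a log axis. *Tppp* and *Sept8* lead, *Plekhb1* and *Sept4* overlap, and *Plekhh1* and *Anln* are the lowest.

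The mean of each of the 10 genes was lower in TG than in WT, by between 2.24% and 36.9%. In 6 of them, *Bcas1*, *Ermn*, *Sept4*, *Plekhb1*, *Plekhh1* and *Anln*, every TG library lay below every WT library, and in 0 of them every TG library lay above. Among all 16714 tested genes, 521 (3.12%) had every TG library below and 486 (2.91%) every TG library above. The members were picked with this contrast known, so the 6 of 10 is not set against those shares as a test. The median log2 difference (TG minus WT) was -0.32 over the 10 genes, with a range from -0.69 to -0.03, and it was -0.004 over all tested genes. In whole tissue, fewer oligodendrocytes and less of an RNA in each of them cannot be told apart.

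**Figure D2:**
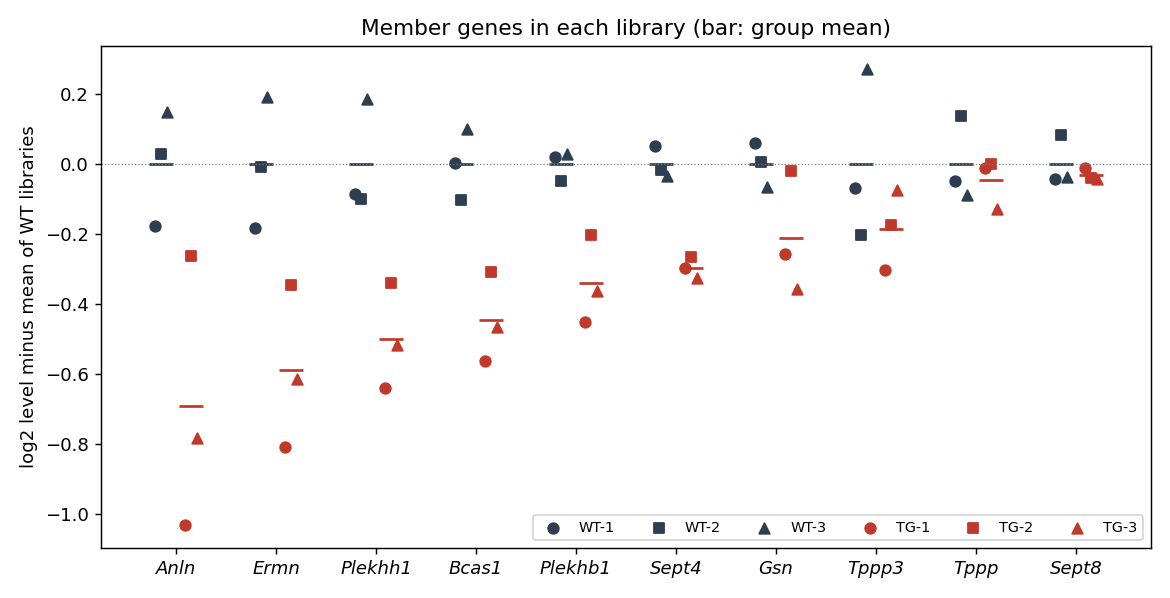
Log2 level of each gene in each library, minus the mean of the 3 WT libraries (circle, library 1; square, library 2; triangle, library 3; bar, group mean), with the genes in the order of their difference. The TG symbols of *Anln*, *Ermn*, *Plekhh1*, *Bcas1*, *Plekhb1* and *Sept4* all lie below the WT symbols, and those of *Sept8* and, except for TG-3, of *Tppp* lie among them.

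*Bcas1* (ENSMUSG00000013523, GRCm38 chr2:170346991-170427845, minus strand) is transcribed in oligodendrocytes that begin to myelinate and stays on in mature myelin. Its level was 2306, 2755 and 2469 normalized counts in TG-1, TG-2 and TG-3 and 3414, 3175 and 3658 in WT-1, WT-2 and WT-3. The highest TG library, TG-2, lay 420 normalized counts under the lowest WT library, WT-2. The means were 2510 ± 227 and 3416 ± 242 (SD, n = 3 each), a log2 difference of -0.45 (SE 0.09). The antisense gene *Bcas1os1* shares 440 bases of exon with *Bcas1* and was not analysed here.

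*Ermn* (ENSMUSG00000026830, chr2:58045113-58052864, minus strand), whose SOX-type letters are printed above, codes for ermin, an actin-binding protein of the ezrin-radixin-moesin type found in myelinating oligodendrocytes. Its level was 713, 984 and 816 normalized counts in TG-1, TG-2 and TG-3 and 1101, 1243 and 1428 in WT-1, WT-2 and WT-3. The libraries of each genotype were spread widely, but the groups did not overlap. This came to a mean 33.4% lower in TG, a log2 difference of -0.59 (SE 0.14). *Ermn* shares 237 bases of exon with *Galnt5* on the opposite strand (mean 13.9 normalized counts). *Ermn* has 1 transcript in the annotation used here, and the release behind the deposited estimate is not known.

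The genes of the septin scaffold differed among themselves. Septins are GTP-binding proteins that assemble into filaments from several subunits, and *Sept4* (ENSMUSG00000020486, chr11:87568903-87590539, plus strand) and *Sept8* (ENSMUSG00000018398, chr11:53519257-53549565, plus strand) code for subunits found in myelin. *Sept4* was at 3301, 3378 and 3237 normalized counts in TG-1, TG-2 and TG-3 and at 4207, 4007 and 3964 in WT-1, WT-2 and WT-3. Its log2 SD within a genotype, pooled over both genotypes, was the smallest of the 10 genes (0.04). The lowest WT library of *Sept4* was 586 normalized counts above the highest TG library. Its mean was 18.6% lower in TG, with a log2 difference of -0.30 (SE 0.07).

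*Sept8*, in contrast, was at 12280, 12056 and 12031 normalized counts in TG-1, TG-2 and TG-3 and at 12014, 13119 and 12068 in WT-1, WT-2 and WT-3. TG and WT libraries were interleaved, and only WT-2 stood above the rest. Its log2 difference was -0.03 (SE 0.07), and it was 0.01 without WT-2, so its sign rested on that library. Both septins have several annotated transcripts, 18 for *Sept4* and 7 for *Sept8*, and transcripts were not examined separately.

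*Anln* (ENSMUSG00000036777, chr9:22332012-22389188, minus strand) codes for anillin, which binds septins and actin in the furrow of dividing cells and gathers septins in myelin. It was the least abundant of the 10, with 243, 415 and 289 normalized counts in TG-1, TG-2 and TG-3 and 440, 508 and 552 in WT-1, WT-2 and WT-3. The groups did not overlap, but TG-2 came within 25.3 normalized counts of WT-1, the narrowest gap among the 6 separated genes. The means were 316 ± 89.1 and 500.1 ± 56.3, and the log2 difference of -0.69 (SE 0.20) was the largest of the 10 and also the least precise. It was -0.91 without TG-2 and -0.52 without TG-1. As *Anln* is also a gene of dividing cells, 8 other such genes were examined. Of the 7 that passed the filter, 1 had an unadjusted p under 0.05, *Mki67* (named after its values were seen), with 42.3, 44.3 and 44.3 normalized counts in TG and 56.3, 67.5 and 75.4 in WT, a log2 difference of -0.59 (limma adjusted p = 0.9999). *Top2a* and *Ccnb1*, the most abundant of them, had log2 differences of -0.13 and -0.12. In all, 5 of the 7 were lower in TG on average and 2 higher, with a median log2 difference of -0.13, and *Ccnb2* (0.29, named after its values were seen) had every TG library above every WT library. Their part in the *Anln* result was not tested.

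The 9 other septin genes that were tested had log2 differences from -0.16 (*Sept2*) to 0.09 (*Sept5*), with a median of -0.005, and 0 of them had an unadjusted p under 0.05. *Sept7*, whose product sits at a fixed place in septin filaments of many cell types, was at 12471 ± 462 normalized counts in TG and 12954 ± 1367 in WT, a log2 difference of -0.05 (SE 0.09). *Sept2*, a septin also found in myelin, was at 1466 ± 246 and 1629 ± 244. *Sept5* and *Sept3*, which are abundant in neurons, were the 2 most abundant of these septins. Among the tested septin genes, *Sept4* was the one with every TG library below every WT library.

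The lipid-binding genes were both separated. *Plekhb1* (ENSMUSG00000030701, chr7:100642892-100662414, minus strand) codes for a small membrane protein with a pleckstrin homology domain. Its level was 3979, 4729 and 4224 normalized counts in TG-1, TG-2 and TG-3 and 5517, 5256 and 5549 in WT-1, WT-2 and WT-3. The WT libraries lay close together, and TG-2 was the TG library nearest to them. The means of 4311 ± 382 and 5440 ± 160 gave a log2 difference of -0.34 (SE 0.08).

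*Plekhh1* (ENSMUSG00000060716, chr12:79029163-79081655, plus strand), with 3 E-boxes in the window printed above, codes for a larger protein with pleckstrin homology, MyTH4 and FERM domains. It was at 628, 775 and 684 normalized counts in TG-1, TG-2 and TG-3 and at 924, 916 and 1116 in WT-1, WT-2 and WT-3. TG libraries all lay below WT, with WT-3 the highest of the 6. Its mean was 29.4% lower in TG, with a log2 difference of -0.50 (SE 0.12). *Plekhh1* shares 992 bases of exon with *Pigh* on the opposite strand (mean 242 normalized counts). The libraries were stranded, but how strand was set in the quantification is not given in the sources used here.

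The microtubule genes had overlapping genotypes. *Tppp* (ENSMUSG00000021573, chr13:74009407-74035753, plus strand) codes for tubulin polymerization-promoting protein, which nucleates and bundles microtubules in oligodendrocyte processes. Its level was 18721, 18882 and 17279 normalized counts in TG-1, TG-2 and TG-3 and 18271, 20751 and 17757 in WT-1, WT-2 and WT-3. TG libraries lay within the range of WT except for TG-3, the lowest of the 6. The log2 difference was -0.05 (SE 0.09), and it was 0.02 without WT-2, so that no direction can be given for *Tppp*.

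*Tppp3* (ENSMUSG00000014846, chr8:105467493-105471526, minus strand) codes for a shorter relative of the same family that is also transcribed in ciliated cells. It was at 481, 525 and 563 normalized counts in TG-1, TG-2 and TG-3 and at 566, 515 and 717 in WT-1, WT-2 and WT-3. The groups overlapped, and WT-3 stood above the other 5 libraries. Its log2 difference was -0.18 (SE 0.14), -0.05 without WT-3 and -0.29 without WT-2. WT-3 was also the highest WT library for 8 of 11 ependymal and choroid plexus genes, among them, named after their values were seen, *Foxj1* (177 normalized counts, against 103 and 115 in WT-1 and WT-2), *Ccdc153* (70.3 against 6.54 and 13.5) and *Tmem212* (29.8 against 1.88 and 3.84). It was the lowest WT library for *Tekt1* (12.6 against 19.7 and 25.1) and *Kcnj13* (19.4 against 21.7 and 23.0), also named after their values were seen. In TG, library 3 was likewise the highest for 8 of the 11 genes and for *Tppp3*. The same count over all tested genes was not made. The summed level of the 11 genes ranged from 302 to 739 in TG and from 289 to 560 in WT, and without *Ttr*, at 445 in TG-3, from 279 to 293 in TG and from 275 to 518 in WT. Of the 11 genes, 2 were lower at an unadjusted p under 0.05 (0 without WT-3 or TG-2, 1 without TG-1 or TG-3, 3 without WT-1 and up to 3 over the other settings). At the same level, 1 of the 11 genes was higher (*Ttr*, and 0 without TG-1, TG-3, WT-1 or WT-2). Their part in the *Tppp3* value was not tested.

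*Gsn* (ENSMUSG00000026879, chr2:35256380-35307892, plus strand) codes for gelsolin, which severs and caps actin filaments and is abundant in myelinating oligodendrocytes. Its level was 1188, 1398 and 1107 normalized counts in TG-1, TG-2 and TG-3 and 1480, 1423 and 1355 in WT-1, WT-2 and WT-3. TG-2 exceeded WT-3, and the other 2 TG libraries lay below all of WT. The means were 1231 ± 150 and 1419 ± 62.4, a log2 difference of -0.21 (SE 0.10), -0.14 without TG-3 and -0.31 without TG-2. Compared within a replicate number, *Gsn* was lower in TG in all 3 pairs, as the 6 separated genes had to be, 7 of 10 in all, and 2208 of all tested genes were (13.2%). *Sept8*, *Tppp* and *Tppp3* were lower in 2 of 3 pairs.

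**Figure D3:**
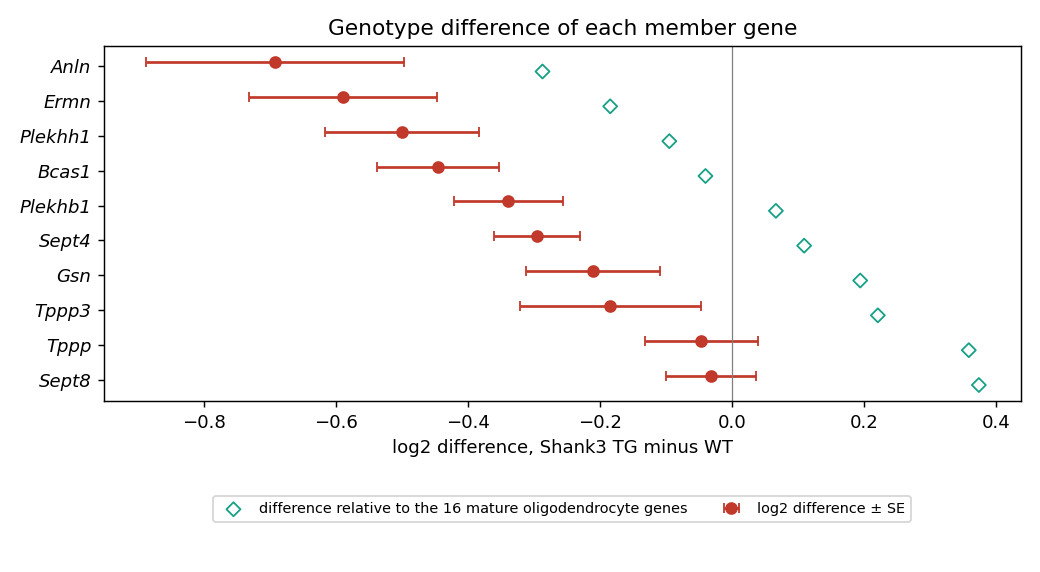
Log2 difference, TG minus WT, of each gene with its SE (circles) and the same difference relative to the mean of 16 mature oligodendrocyte genes (open diamonds, no error drawn). The circles run from -0.69 for *Anln* to -0.03 for *Sept8*, and the diamonds change sign between *Bcas1* (-0.04) and *Plekhb1* (0.07).

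Other genes of myelin and mature oligodendrocytes gave the background for these values. A list of 16, none of them a member, held genes of the myelin sheath such as *Mbp* and *Mobp* and had a median log2 difference of -0.43. The mean log2 level of all 16 was lower in TG, although the mean normalized count of *Gjb1* (named after its values were seen) was higher, 188 ± 109 against 173 ± 40.7. Of the 16, 14 were lower at an unadjusted p under 0.05 (limma; 9 without TG-1) and 0 at an adjusted p under 0.05, with or without the replicate block, and 13 had no overlap between the genotypes. Their summed level was 83509 to 107920 normalized counts in TG and 124016 to 125949 in WT. TG-2 was the highest TG library in 14 of these 16 genes and in 8 of the 10 members, and WT-3 was the highest WT library in 13 of 16 and in 6 of 10. How often these libraries were the highest over all tested genes was not counted.

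Each gene was also read relative to this list, as its log2 level minus the mean log2 level of the 16 genes in the same library. *Bcas1* kept an almost constant distance above the list, by 0.73, 0.67 and 0.64 in TG-1, TG-2 and TG-3 and by 0.74, 0.71 and 0.71 in WT-1, WT-2 and WT-3. The TG minus WT difference of this relative level was -0.04, and -0.06 to -0.02 with a library left out. It was 0.07 for *Plekhb1* (0.02 without WT-3), -0.10 for *Plekhh1* (-0.06 without WT-3, and up to -0.04 over the other settings) and 0.11 for *Sept4* (0.03 without TG-1). The relative level of *Plekhh1* was -1.147, -1.157 and -1.208 in TG and -1.141, -1.082 and -1.003 in WT, without overlap, although TG-1 lay next to WT-1. The list mean includes *Gjb1*, which was at 118, 131 and 314 normalized counts in TG-1, TG-2 and TG-3. Whether *Plekhh1* stays separated without *Gjb1* in the list was not examined. Relative to the list, 0.126% of all tested genes had every TG library below every WT library, and 53.8% had every TG library above. The list was itself lower in TG, and *Plekhh1* was picked with the contrast known. The separation of *Plekhh1* is therefore not set against these shares as a test. *Ermn* (-0.18) and *Anln* (-0.29) were lower in TG relative to the list on average, with overlapping libraries, and *Anln* was at -0.43 without TG-2.

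*Gsn* (0.19), *Tppp3* (0.22), *Tppp* (0.36) and *Sept8* (0.37) were higher relative to the list in TG on average, and *Gsn* was at 0.10 without WT-3. *Sept8* lay 3.14, 2.80 and 2.93 above the list in TG-1, TG-2 and TG-3 and 2.56, 2.76 and 2.43 above it in WT-1, WT-2 and WT-3, without overlap. *Tppp* lay 3.75, 3.45 and 3.45 above it in TG and 3.16, 3.42 and 2.99 in WT, again without overlap. The mean log2 level of the list did not itself overlap between the genotypes (10.44 to 10.76 in TG and 10.92 to 11.13 in WT), and 53.8% of all tested genes had every TG library above every WT library relative to it, so the separation of *Sept8* and *Tppp* is that of most genes. These were also the 2 highest genes per kilobase. The libraries were made from whole mPFC tissue, and how much of each RNA came from oligodendrocytes was not measured.

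The spread between libraries of the same genotype gave another division of the 10 genes. On the log2 scale and pooled over both genotypes, the SD of *Bcas1* was 0.12 and fell to 0.03 once the list was subtracted. It went from 0.16 to 0.05 for *Plekhh1*, from 0.21 to 0.12 for *Ermn*, from 0.09 to 0.06 for *Plekhb1*, from 0.19 to 0.13 for *Tppp3* and from 0.30 to 0.20 for *Anln*. In these 6 genes, the libraries of a genotype came closer together relative to the myelin genes than they were as deposited. For the other 4 the SD grew, from 0.04 to 0.14 for *Sept4*, from 0.05 to 0.17 for *Sept8*, from 0.10 to 0.20 for *Tppp* and from 0.13 to 0.15 for *Gsn*. *Sept4* was the 1 separated gene among these 4. With 3 libraries a genotype, these SDs are descriptions and were not compared by a test.

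**Figure D4:**
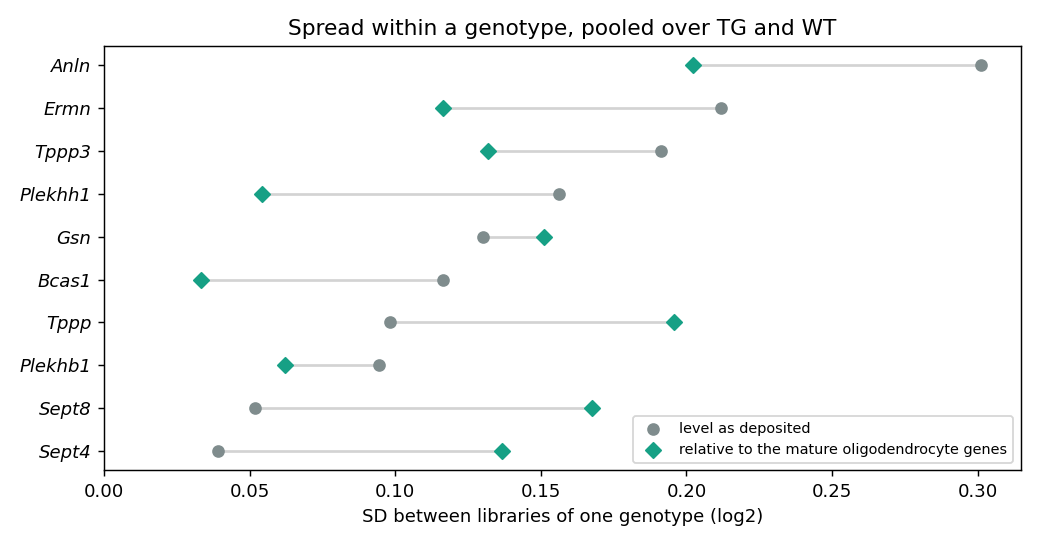
SD of the log2 level between libraries of one genotype, pooled over TG and WT, as deposited (grey circles) and after subtracting the mean of the 16 mature oligodendrocyte genes (green diamonds). The SD shrinks for *Bcas1*, *Plekhh1*, *Ermn*, *Plekhb1*, *Tppp3* and *Anln* and grows for *Sept4*, *Sept8*, *Tppp* and *Gsn*.

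The libraries numbered 3 differed from those numbered 1 and 2 in both genotypes, as the deviations of TG-3 and WT-3 correlated by 0.62 across genes. Among the 10 genes, library 3 minus the mean of libraries 1 and 2 was 0.16 in TG and 0.41 in WT for *Tppp3*, on the log2 scale. *Tppp* (-0.12 and -0.13) and *Gsn* (-0.22 and -0.10) were lower in library 3 of both genotypes. *Ermn* (-0.04 and 0.29), *Plekhh1* (-0.03 and 0.28) and *Anln* (-0.14 and 0.22) were higher in library 3 in WT and not in TG.

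Relatives and partners of the 10 genes were examined in the same fit, to see how the rest of the cytoskeleton stood. The tested relatives, from the gelsolin, PLEKHB, PLEKHH and ezrin-radixin-moesin families, had a median log2 difference of -0.05, and 0 of 13 had an unadjusted p under 0.05. *Plekhb2*, the closest relative of *Plekhb1*, was at 5934 ± 309 normalized counts in TG and 5917 ± 273 in WT. *Plekhh2* and *Plekhh3* had log2 differences of 0.08 and -0.19, and the ezrin-radixin-moesin genes *Rdx*, *Ezr* and *Msn* of -0.14, -0.08 and -0.13. The difference between a member and its relative was not tested.

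Genes that act on actin more widely were at 0 of 17 with an unadjusted p under 0.05 for actin assembly (the ARP2/3 complex and its activators, median log2 difference 0.01) and at 0 of 8 for actin disassembly (median 0.02). With the replicate block, 1 of the 17 was lower (*Arpc4*) and 1 higher (*Wasf1*) at that level, both named after their values were seen. *Cfl1*, which codes for the actin-severing cofilin, was at 19600 ± 675 normalized counts in TG and 18678 ± 415 in WT, against the 1231 ± 150 and 1419 ± 62.4 of *Gsn*. The counts were likewise 0 of 12 alpha- and beta-tubulin genes (median 0.07) and 0 of 14 genes for microtubule-associated proteins (median -0.01). *Tubb4a*, a beta-tubulin rich in oligodendrocytes and neurons, had a log2 difference of -0.02 (SE 0.07). These genes are also used by neurons and other cells of the mPFC, and their level within oligodendrocytes was not measured.

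**Figure D5:**
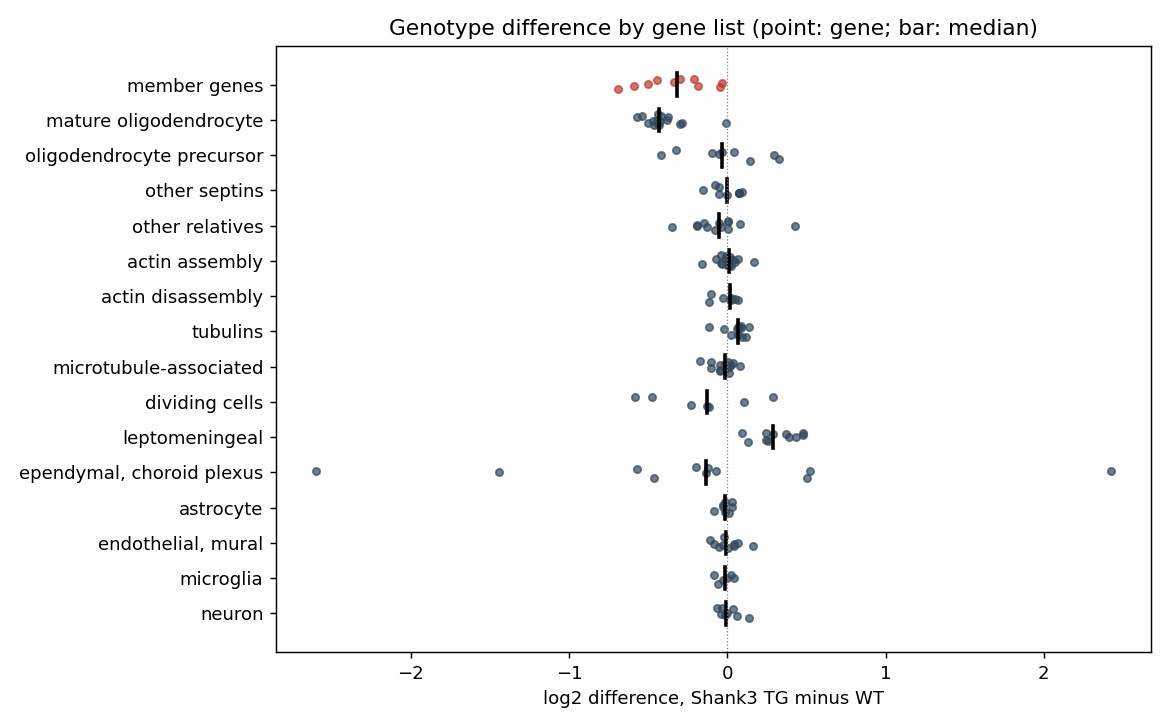
Log2 difference, TG minus WT, of each tested gene (points) and its median (bar) in the 10 members and in 15 lists of other genes. The members (median -0.32) and the mature oligodendrocyte genes (median -0.43) lie to the left of 0, the leptomeningeal genes (median 0.29) to the right, and the lists of septins, relatives, actin, tubulin and microtubule genes lie around 0.

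Markers of other cells were read for the same libraries. Oligodendrocyte precursor genes had a median log2 difference of -0.03, and 1 of 9 was lower at an unadjusted p under 0.05, *Vcan* (-0.32), and 2 were with the block or without TG-2. The precursor genes higher at that level went from 0 to 1 without WT-1. *Vcan* had every TG library below every WT library and *Bmp4* (0.32) every TG library above, and both were named after their values were seen. *Tnr*, *Pdgfra* and *Gpr17*, the most abundant of them, had log2 differences of 0.04, -0.03 and -0.05. The 11 leptomeningeal genes were all higher in TG on average, 5 at an unadjusted p under 0.05 (3 without TG-2, 3 without WT-2, 7 without TG-3 and up to 8 over the other settings). Their summed level was 5246 to 6202 normalized counts in TG and 4508 to 5018 in WT. The astrocyte, endothelial and mural, microglia and neuron lists had 0 genes at an unadjusted p under 0.05 in either direction, with medians between -0.02 and -0.006. Without TG-3, 2 endothelial and mural genes were higher at that level. The summed leptomeningeal level moved with the genotype, and its part in the lower level of the 10 genes was not tested.

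The genes with a profile most like the mean of the 10 across the 6 libraries were *Zfp61*, *Myo1d*, *Cryab*, *Ndrg1* and *Dock5*, among 13445 genes whose mean reached 50 normalized counts. Likeness was the root mean square difference of mean-centred log2 levels, 0.03 for *Zfp61*, 0.04 for *Myo1d*, *Cryab* and *Ndrg1* and 0.05 for *Dock5*. *Myo1d*, a myosin that links membrane to actin, was at 334, 399 and 360 normalized counts in TG-1, TG-2 and TG-3 and at 440, 442 and 451 in WT-1, WT-2 and WT-3. *Cryab*, a small heat shock protein gene, was at 1214, 1428 and 1224 in TG and at 1578, 1507 and 1621 in WT. Among the members themselves, *Plekhb1* was nearest to the mean profile (0.03) and *Anln* the farthest (0.25).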

How the data were processed

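RNA-seq of mPFC was analysed from 6 libraries, 3 TG and 3 WT, grouped by their labels. The deposited values are a signal that the authors obtained by estimating transcript counts with Salmon 0.9.1 on GRCm38 with GC bias correction, summing them to genes and dividing by size factors in DESeq2 1.19.11. The annotation release the authors used is not given in the sources used here. Libraries were stranded mRNA (TruSeq), sequenced as paired reads. The deposited normalized counts summed to 28363967 to 29447717 per library. At most 41.1% of the values up to 20 in a library lay within 0.05 of a multiple of one step, so reads were not recovered and no counting interval is given.

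Names, positions and lengths came from GENCODE M21, which named 18231 of the 18254 genes, and promoter windows from RefSeq. Genes with a mean of at least 5 (16714) were tested with limma 3.58.1 in R 4.3.3 on log2(normalized count + 1), so that fold changes of low genes are understated, with genotype as the only term, a mean-variance trend, two-sided tests and Benjamini-Hochberg adjustment over all tested genes. As no file holds counts, a count model was not used. The fit was tested on simulated data. Members and lists were chosen with earlier results of these data known, so no p-value is given for a member and none adjusted over a list. All members are named. Of the other lists, at most the 3 most abundant genes are, and any septin or relative, the 5 genes of nearest profile and *Shank3*. Genes named outside this rule are marked in the text as named after their values were seen. Libraries with the same number deviated together (correlations of 0.30, 0.33 and 0.62 across genes for numbers 1, 2 and 3). As TG-1 with WT-2 (0.27) and TG-2 with WT-1 (0.23) came close, only number 3 stood out, and the pairing of numbers 1 and 2 is not settled. The main fit did not use the numbers, and the replicate block is given as an alternative.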

Additional observations from a re-analysis of the deposited data

How the results depend on the processing

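The number of genes with an adjusted p under 0.05 was 0 in the fit reported, and it was 1 with the replicate block, 1 with the robust option of eBayes, 1 with only libraries 1 and 2 (added after the data had been seen) and 26 with an empirical null. With a library left out it was 0 to 1, and 1 only without WT-3. In each setting with 1 gene, it was *Shank3*. With the block, no gene of a list passed that threshold. At an unadjusted p under 0.05 the genes lower in TG numbered 180 and ranged from 128 to 444 over the other settings, with 444 under the block, and 115 were lower without TG-1. The 156 higher genes became 255 without WT-3, 97 at a mean of 50 or more, 260 with only libraries 1 and 2 and 389 under the block. Of the 16 mature oligodendrocyte genes 14 were lower at that level, and 9 without TG-1. The 5 higher leptomeningeal genes became 3 without TG-2 and 7 without TG-3, and up to 8 over the other settings. Leaving out a library cannot undo the separation of the 6 separated members, and the count was 6 to 7 of 10, with *Gsn* added without TG-2 or WT-3 and *Tppp3* without WT-2, while 5.61% to 7.99% of all tested genes were separated. The median of the members was -0.36 to -0.29 with a library left out, and that of the mature oligodendrocyte list -0.53 to -0.37. Pseudocount, filter, upper-quartile scaling and quantile normalization kept the sign of all 10 members, and *Sept8* and *Tppp* changed sign without WT-2. Relative to the mature oligodendrocyte list, no member changed sign with a library left out. The depth in reads is unknown from normalized counts, and with 3 pools a genotype the differences of *Sept8*, *Tppp*, *Tppp3* and *Gsn* lay within the overlap of the libraries.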
